A study of Mus musculus with 12 samples.

Results

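The Hox genes of the mouse oviduct are described here across the estrous cycle. They were chosen as every array probe whose annotated symbol is a Hoxa, Hoxb, Hoxc or Hoxd gene followed by its number, with no measured value used. This gave 50 probes of 38 genes, out of 25697 probes and 16593 named genes on the array. The oviducts came from ICR mice, an outbred stock, at 6 weeks of age, and were taken at 4 stages of the cycle: proestrus, estrus, metestrus and diestrus, each measured on 3 arrays. No treatment or genetic change is named in the labels, so the 4 groups differ in stage alone as labelled. RNA of the whole oviduct, labelled with biotin, was read on Illumina bead arrays with a single colour. Whether the 3 arrays of a stage are separate animals, pools or repeats is not in the labels, and p-values here rest on the spread among these arrays, which may be technical.

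Hox genes encode homeodomain transcription factors that lie in 4 clusters, one each on mouse chromosomes 6 (Hoxa), 11 (Hoxb), 15 (Hoxc) and 2 (Hoxd). The number of a gene is its paralog group, which follows its position in the cluster: low numbers are active in anterior parts of the embryo and high numbers in posterior parts. In the mouse, the posterior Hoxa genes are laid out along the Müllerian duct, the embryonic tube that forms the female tract. Hoxa9 marks the future oviduct, Hoxa10 the uterus, Hoxa11 the uterus and cervix and Hoxa13 the upper vagina. The pattern persists in the adult tract, and in the uterus Hoxa10 and Hoxa11 respond to ovarian steroids.

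To show the upstream DNA of the Hoxa genes on which the results turn, the promoter windows of Hoxa2, Hoxa5 and Hoxa9, which passed tests between stages, are printed with that of Hoxa11, which was not detected. Each runs from 250 bases before to 50 after the annotated start (RefSeq, GRCm38.p6, minus strand, gene orientation 5′ to 3′), and capitals mark GGTCA or its complement TGACC, the core that estrogen and retinoid receptors bind.
Hoxa2, chr6:52164782-52165081: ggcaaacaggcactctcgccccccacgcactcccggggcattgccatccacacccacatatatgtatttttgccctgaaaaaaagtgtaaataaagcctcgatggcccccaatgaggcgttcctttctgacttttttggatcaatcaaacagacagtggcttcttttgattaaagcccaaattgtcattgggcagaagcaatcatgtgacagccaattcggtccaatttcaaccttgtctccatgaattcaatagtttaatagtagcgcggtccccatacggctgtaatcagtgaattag
Hoxa5, chr6:52204538-52204837: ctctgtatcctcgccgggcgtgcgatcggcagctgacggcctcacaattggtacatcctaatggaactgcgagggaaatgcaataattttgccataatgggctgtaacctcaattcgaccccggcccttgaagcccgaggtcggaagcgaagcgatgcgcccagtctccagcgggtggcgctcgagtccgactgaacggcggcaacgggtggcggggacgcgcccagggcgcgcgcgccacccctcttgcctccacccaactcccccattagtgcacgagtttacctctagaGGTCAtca
Hoxa9, chr6:52227321-52227620: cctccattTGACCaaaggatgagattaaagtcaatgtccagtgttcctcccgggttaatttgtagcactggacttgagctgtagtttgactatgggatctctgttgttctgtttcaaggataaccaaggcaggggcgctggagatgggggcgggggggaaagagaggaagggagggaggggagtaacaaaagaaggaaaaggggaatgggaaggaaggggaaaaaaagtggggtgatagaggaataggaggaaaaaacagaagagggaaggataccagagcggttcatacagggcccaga
Hoxa11, chr6:52245761-52246060: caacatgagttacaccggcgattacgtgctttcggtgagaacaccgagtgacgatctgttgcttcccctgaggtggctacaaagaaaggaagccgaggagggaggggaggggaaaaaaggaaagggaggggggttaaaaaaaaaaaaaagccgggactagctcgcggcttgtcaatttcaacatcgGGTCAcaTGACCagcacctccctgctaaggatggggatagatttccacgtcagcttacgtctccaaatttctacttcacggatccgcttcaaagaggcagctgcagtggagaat
The table held windows for 22 of the 38 genes, 24 windows in all. GGTCA, searched on both strands, was in 12 of these 24 Hox windows and in 40.5% of the 32841 windows of all genes. The Hoxa5 and Hoxa9 windows held 1 copy each, the Hoxa11 window 2 and the Hoxa2 window 0. The full estrogen response element, GGTCA and TGACC with 3 bases between, which overlaps the search for GGTCA, was in 0 Hox windows and in 0.07% of all windows. The progesterone and glucocorticoid receptor core ACANNNTGT, searched as one motif and its own complement, was in 0 Hox windows and in 6.85% of all. The homeodomain core TAAT was in 79.2% of the Hox windows and in 58.0% of all, with 4 copies each in the Hoxa2 and Hoxa5 windows. The Hox and Pbx composite TGATNNAT was in 16.7% of the Hox windows and in 8.85% of all, and TATAAA in 16.7% and 13.6%. These are letter matches and show no binding.

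About as many Hox genes were read above background as were not. A probe was called detected on an array when its detection p, its standing among that array's negative control beads, was under 0.01, and it was kept when this held on at least 3 of the 12 arrays. By this rule 23 probes of 20 genes were kept, and 18 of them, from 18 genes, were detected on all 12 arrays. A further 20 probes were detected on no array. This left 14 genes without a detection on any array and 4 more, Hoxa6, Hoxa10, Hoxc4 and Hoxd11, detected on 1 or 2 arrays. All detections of the 7 probes that were seen but not kept fell on replicate 1 arrays. Those arrays were brighter, with a median raw intensity of 139 to 156 and 55.6% to 58.1% of probes detected, against 99.3 to 105 and 48.6% to 51.8% on replicates 2 and 3. They showed 22 to 26 of the 50 Hox probes, against 19 to 22 on the others.

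**Figure D1:**
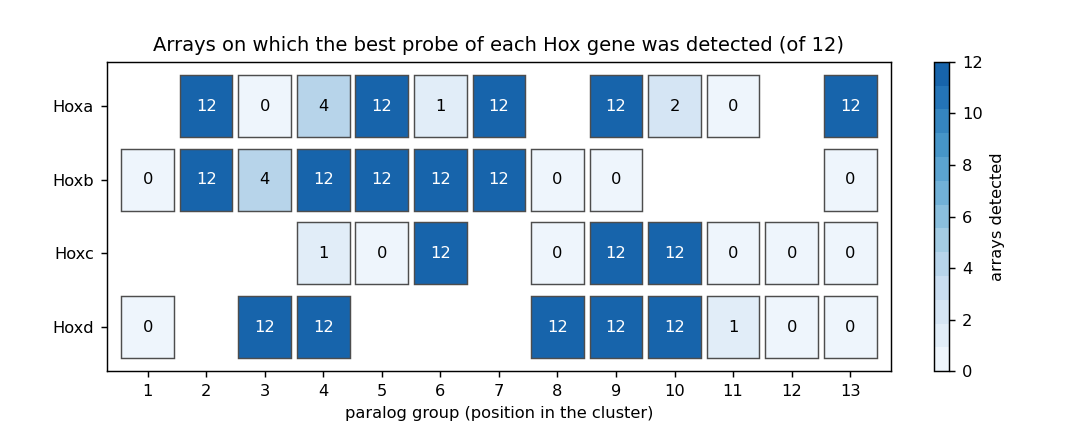
Detection of the Hox genes by cluster (rows) and paralog group (columns, position in the cluster); each square gives the number of the 12 arrays with a detection p under 0.01, for the probe of that gene detected most often, and gaps hold no value. Groups 2 to 10 hold most of the dark squares, and of the 9 genes in groups 11 to 13 with a probe, Hoxa13 was detected on 12 arrays, Hoxd11 on 1 and the others on none.

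By bands of position, the share of genes kept was lowest in groups 11 to 13. Before them it was somewhat higher in each band than in the one before, on few genes each. Counted by probes, 23 of 50 Hox probes were kept, against 14778 of 25697 on the array. In groups 1 to 3, 4 of 7 genes with a probe were kept, in groups 4 to 8 the count was 10 of 15, in groups 9 and 10 it was 5 of 7, and in groups 11 to 13 it was 1 of 9. By cluster, 6 of 10 Hoxa genes, 6 of 10 Hoxb genes, 3 of 9 Hoxc genes and 5 of 9 Hoxd genes were kept. Hoxb was read as an unbroken run from Hoxb2 to Hoxb7, while Hoxb1, Hoxb8, Hoxb9 and Hoxb13 were detected on no array. Hoxd was likewise read as an unbroken run of Hoxd3, Hoxd4, Hoxd8, Hoxd9 and Hoxd10, since this cluster has no gene between Hoxd4 and Hoxd8. Its Hoxd1, Hoxd12 and Hoxd13 were on no array. In Hoxc the kept genes were Hoxc6, Hoxc9 and Hoxc10, and Hoxc5, Hoxc8, Hoxc11, Hoxc12 and Hoxc13 were on no array. In Hoxa the kept genes were Hoxa2, Hoxa4, Hoxa5, Hoxa7, Hoxa9 and Hoxa13, with Hoxa3 and Hoxa11 on no array. A probe that was not detected gives a bound and no level. With several probes for a gene the readings could differ: of 3 Hoxa9 probes, 1 was detected on 12 arrays, 1 on 11 and 1 on 0, and the 3 Hoxa13 probes were detected on 12, 1 and 0.

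The levels below are log2 intensities after background correction and normalization, on which the 20 Hox probes detected on no array lay at 4.26 to 5.54. Probes differ in affinity, so levels of different genes are given by position without an order. In the Hoxa cluster the medians over 12 arrays were 6.23 and 7.03 for the Hoxa2 probes, 5.48 for Hoxa4, 10.49 for Hoxa5, 9.70 for Hoxa7, 6.71 and 6.42 for the Hoxa9 probes and 6.01 for Hoxa13. In the Hoxb cluster they were 8.77 for Hoxb2, 5.38 for Hoxb3, 9.51 for Hoxb4, 10.05 for Hoxb5, 9.36 for Hoxb6 and 10.56 for Hoxb7. Hoxb3 had 1 kept probe of 3, and it was detected on the 4 replicate 1 arrays alone. In the Hoxc cluster the medians were 11.68 for Hoxc6, 9.08 for Hoxc9 and 5.97 and 6.32 for the Hoxc10 probes. In the Hoxd cluster they were 7.07 for Hoxd3, 9.20 for Hoxd4, 9.49 for Hoxd8, 7.47 for Hoxd9 and 8.51 for Hoxd10.

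Among the genes that are laid out along the tract, Hoxa9, the oviduct gene, was read, Hoxa10 was detected on 2 arrays by 1 of its probes and Hoxa11 was detected on none. Hoxa10 probe 1 lay between 4.36 and 4.65 on the 12 arrays. Hoxa10 probe 2 had 4.84, 4.74 and 5.18 at proestrus, 4.99, 5.08 and 4.86 at estrus, 5.31, 4.64 and 5.23 at metestrus and 5.42, 4.78 and 5.14 at diestrus, and was detected on the first arrays of metestrus and diestrus. Its other 10 arrays did not pass the detection p. Hoxa11 had 4.58, 4.48 and 4.50 at proestrus, 4.46, 4.69 and 4.54 at estrus, 4.72, 4.37 and 4.47 at metestrus and 4.71, 4.59 and 4.47 at diestrus, all at background. Its raw intensities were 68.5 to 96.3, and its lowest detection p was 0.21.

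Hoxa13, the vaginal gene of the series, had 1 kept probe of 3, probe 3. That probe had 5.43, 6.02 and 6.01 at proestrus, 5.97, 6.03 and 6.06 at estrus, 5.72, 5.85 and 6.04 at metestrus and 5.79, 6.28 and 6.16 at diestrus, and the stages overlapped (moderated F across the 4 stages, limma adjusted p = 0.956). Hoxa13 probe 2, detected on 1 array, lay between 4.59 and 5.56, and probe 1, detected on none, between 4.26 and 4.70. The probes of this gene thus disagree on whether it is detected. Hoxb13, Hoxc13 and Hoxd13, its paralogs, were detected on no array. Hoxc13 ranged from 4.56 to 5.54, with a lowest detection p of 0.018.

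Hoxa9 was lowest at proestrus and highest at metestrus. Its probe 1 had 6.23, 6.22 and 5.86 at proestrus, 6.21, 6.75 and 6.52 at estrus, 7.05, 6.75 and 6.87 at metestrus and 6.87, 6.73 and 6.70 at diestrus. Every metestrus and diestrus array lay above every proestrus array. Probe 2 had 6.48, 5.90 and 5.56 at proestrus, 6.03, 6.35 and 6.32 at estrus, 7.21, 6.64 and 6.57 at metestrus and 6.81, 6.75 and 6.33 at diestrus, with metestrus again above proestrus on all arrays. Probe 3, detected on 0 arrays, lay between 4.36 and 4.65. Across the 4 stages neither detected probe passed (limma moderated F, adjusted p = 0.0551 for probe 1 and 0.241 for probe 2), while probe 1 passed in 2 pairs of stages given below. With the replicate number as a block both passed, at adjusted p = 0.0195 and 0.047 (limma).

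Of the paralogs of Hoxa9 and Hoxa10 in the other clusters, Hoxb9 was detected on no array, and Hoxc9, Hoxd9, Hoxc10 and Hoxd10 were kept and passed in no pair of stages without the block. Hoxc9 had 8.76, 9.05 and 9.20 at proestrus, 8.79, 9.26 and 9.08 at estrus, 8.61, 9.82 and 9.68 at metestrus and 8.96, 9.08 and 9.44 at diestrus. The first array of each stage was its lowest, and at metestrus it was below all proestrus arrays. Hoxd9 had 7.20, 7.28 and 7.33 at proestrus, 7.31, 7.65 and 7.58 at estrus, 7.37, 7.80 and 7.77 at metestrus and 7.20, 7.69 and 7.60 at diestrus. Its metestrus arrays lay above its proestrus arrays, a difference of 0.37 (95% interval 0.00 to 0.74, limma adjusted p = 0.308). With the replicate block that adjusted p was 0.0353.

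Of the group 10 paralogs, Hoxd10 had 7.96, 8.40 and 8.43 at proestrus, 8.16, 8.66 and 8.82 at estrus, 8.10, 8.61 and 8.59 at metestrus and 8.06, 8.71 and 8.79 at diestrus. Hoxc10 probe 2 had 5.51, 6.24 and 6.45 at proestrus, 5.69, 6.60 and 6.58 at estrus, 5.67, 6.82 and 6.77 at metestrus and 6.04, 6.13 and 6.41 at diestrus. Hoxc10 probe 1 had 5.84, 6.22 and 5.81 at proestrus, 5.64, 6.11 and 6.33 at estrus, 6.11, 5.84 and 6.06 at metestrus and 6.04, 5.8 and 5.89 at diestrus. The stages overlapped in all 3 probes, and the 2 Hoxc10 probes did not share a pattern. For Hoxb6, Hoxc9, Hoxc10 probe 2 and Hoxd10, all 4 replicate 1 arrays lay below all 8 others, which held for 11.5% of all kept probes. The gap was largest for Hoxc10 probe 2, at -0.77 (replicate 1 minus replicates 2 and 3, log2). For 0 Hox probes did replicate 1 lie above all the others, against 12.6% of all kept probes.

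**Figure D2:**
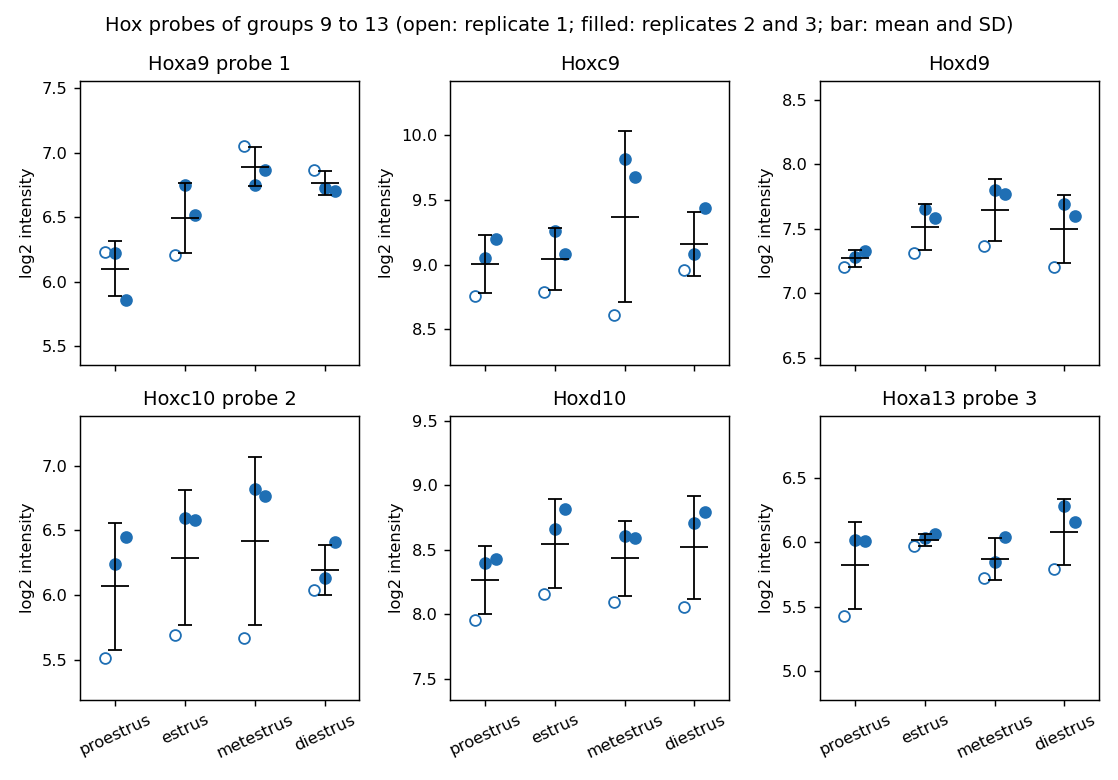
Log2 intensity of 6 probes of groups 9 to 13 on each array by stage (open points: replicate 1; filled points: replicates 2 and 3; bars: mean and SD of 3 arrays). Hoxc10 probe 2, Hoxd10 and Hoxc9 have their open points lowest at every stage, and Hoxa9 probe 1 is lowest at proestrus.

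Across the cycle 3 Hox probes changed: Hoxc6, Hoxa5 and Hoxa2 probe 2, all highest at metestrus and lowest at proestrus. This was 3 of the 23 tested (13%), where 4.30% of all 14778 tested probes were called (limma moderated F, adjusted p under 0.05). Without adjustment 7 of the 23 had a p under 0.05 (30.4%), against 14.4% of all probes. With the replicate number as a block the call widened to 6 Hox probes, among them the same 3, where 13.8% of all probes were called. The count was 0 with median scaling, with normalization apart for the array sets and from the deposited matrix, and 1 without proestrus replicate 3, metestrus replicate 2 or metestrus replicate 3. Metestrus was the highest stage for 12 of the 23 Hox probes (52.2%), against 26.3% of all probes, and proestrus for 0 of 23, against 30.5%. Proestrus was the lowest stage for 17 of 23 (73.9%), against 30.4% of all. In whole-tissue RNA, fewer cells of a type and less RNA per cell cannot be told apart.

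Hoxc6 (probe ILMN_1217328), a mid-cluster gene with roles in patterning of the trunk, had the lowest F p of the Hox probes. It had 11.30, 11.36 and 11.31 at proestrus, 11.64, 11.60 and 11.54 at estrus, 12.35, 11.99 and 12.05 at metestrus and 11.86, 11.71 and 11.91 at diestrus. No array of any stage overlapped those of another. Means were 11.33 ± 0.04, 11.59 ± 0.05, 12.13 ± 0.20 and 11.83 ± 0.10 in cycle order (SD, n = 3 each; limma moderated F, adjusted p = 0.0124).

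Hoxa5 (ILMN_1217978), known for its part in lung, trunk skeleton and mammary gland, had 10.44, 10.14 and 10.29 at proestrus, 10.54, 10.32 and 10.36 at estrus, 10.99, 11.34 and 11.28 at metestrus and 10.77, 10.43 and 10.78 at diestrus. The 3 metestrus arrays lay above all other arrays. The adjusted F p was 0.0129 (limma).

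Hoxa2, which patterns the hindbrain and the second branchial arch in the embryo, was measured by a pair of probes. Probe 2 (ILMN_2874270) had 6.75, 6.66 and 6.80 at proestrus, 6.76, 6.71 and 7.10 at estrus, 7.45, 7.51 and 7.54 at metestrus and 6.99, 7.07 and 7.29 at diestrus. Probe 1 (ILMN_2618302) had 5.66, 5.6 and 6.14 at proestrus, 5.73, 6.25 and 6.21 at estrus, 6.69, 7.27 and 7.12 at metestrus and 6.14, 6.82 and 7.09 at diestrus. Both put metestrus above proestrus and estrus on all arrays. Probe 2 passed the F test at an adjusted p of 0.0214 and probe 1 lay just outside it at 0.0508 (limma). With the replicate block probe 1 passed at 0.00107 (limma).

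**Figure D3:**
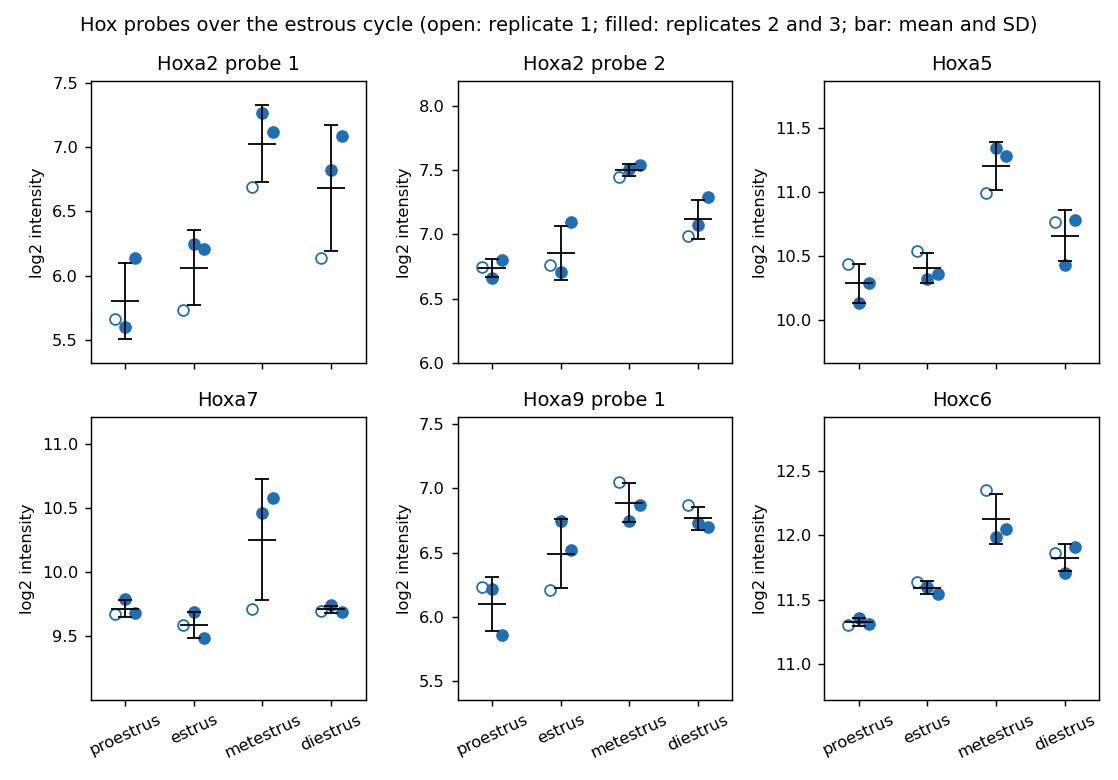
Log2 intensity on each array by stage for the 5 Hox probes that passed a test in the fit without a block, and for Hoxa7 (open points: replicate 1; filled points: replicates 2 and 3; bars: mean and SD of 3 arrays). The 5 probes have their highest mean at metestrus and lowest at proestrus, and in Hoxa7 the open metestrus point stays at the level of the other stages.

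Metestrus set against proestrus gave the most Hox calls. In metestrus 5 Hox probes were higher and 0 lower, 21.7% of the 23, where 4.24% of all probes were called with 2.19% higher and 2.04% lower. Hoxa2 probe 1 had a mean of 7.03 in metestrus and 5.8 in proestrus, a difference of 1.23 ± 0.26 (SE) or 2.34-fold (limma adjusted p = 0.0212). At proestrus this probe was near background, detected on 2 of 3 arrays, and under other settings its difference ran from 0.67 to 1.55. Hoxa5 was 1.89-fold higher (0.91 ± 0.15, 95% interval 0.59 to 1.24, limma adjusted p = 0.00525), and Hoxc6 1.75-fold (0.81 ± 0.13, limma adjusted p = 0.0038). Hoxa9 probe 1 was 1.73-fold higher (0.79 ± 0.16, limma adjusted p = 0.0191), and Hoxa2 probe 2 was 1.70-fold higher (0.76 ± 0.14, limma adjusted p = 0.00824). The arrays of both stages did not overlap in these 5, nor in 4 others (Hoxa9 probe 2, Hoxd3 and Hoxd9, and Hoxb7, whose metestrus arrays were the lower), 9 of 23 against 21.8% of all probes. With the replicate block the same 5 were joined by Hoxa9 probe 2 (0.82, limma adjusted p = 0.0191) and Hoxd9, where 13.6% of all probes were called. The count was 0 with median scaling, with normalization apart and from the deposited matrix, 1 in a fit of the 6 arrays alone and 3 without metestrus replicate 3. Differences ran upward in 21 of 23 Hox probes, with a median of 0.36, against 51.9% and a median of 0.01 over all probes.

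For the 5 calls the sizes within each array set are given, where replicate 1 holds 1 array per stage. Their metestrus and proestrus arrays did not overlap, so any split gives the same direction, which is not a separate test. Replicate 1 against replicates 2 and 3 gave 1.03 and 1.32 for Hoxa2 probe 1, 0.70 and 0.80 for Hoxa2 probe 2, 0.56 and 1.09 for Hoxa5, 0.82 and 0.77 for Hoxa9 probe 1, and 1.06 and 0.68 for Hoxc6 (metestrus minus proestrus, log2). Hoxa7, named after its values were seen, differed mainly in replicates 2 and 3. It had 9.71, 10.46 and 10.58 in metestrus and 9.67, 9.79 and 9.68 in proestrus, so that the first pair differed by 0.04 and the other arrays by 0.79. Pooled, its difference was 0.54 (95% interval 0.11 to 0.97, limma adjusted p = 0.176), and with the replicate block the adjusted p was 0.0578 (limma). A fit of replicates 2 and 3 alone, which leaves out the set that differed, gave 0.00776 (limma).

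**Figure D4:**
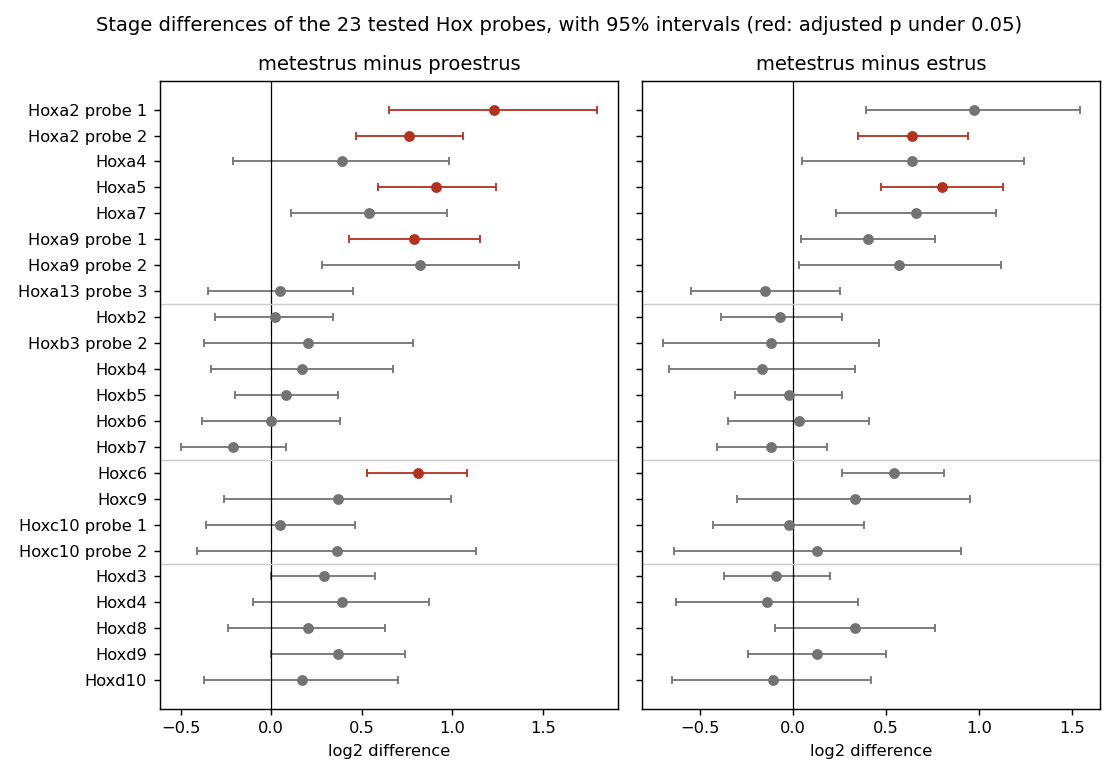
Log2 differences, metestrus minus proestrus (left) and metestrus minus estrus (right), for the 23 tested Hox probes in cluster order, with 95% intervals from the limma fit; red marks an adjusted p under 0.05. In the left panel 5 probes are red, 4 of them from Hoxa, and the Hoxb intervals all include 0.

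In the Hoxb cluster, with 6 kept probes, no probe passed in any pair of stages, with or without the replicate block. Of all probes at most 4.24% were called in a pair without the block and at most 14.3% with it. With so few probes, no call is near these shares and does not set the cluster apart. For metestrus minus proestrus the differences were 0.02 for Hoxb2 (95% interval -0.31 to 0.34), 0.17 for Hoxb4 (-0.33 to 0.67), 0.08 for Hoxb5 (-0.20 to 0.37), 0.00 for Hoxb6 (-0.38 to 0.38) and -0.21 for Hoxb7 (-0.50 to 0.08). The kept Hoxb3 probe had 0.20 (95% interval -0.37 to 0.78). Hoxb6 had the smallest spread of stage means of all tested Hox probes, 0.03 against a median of 0.37 over the 23 and 0.30 over all probes. The Hoxb5 arrays ran from 9.86 to 10.36 over the whole cycle.

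To ask whether paralogs differed in stage pattern, the log2 difference was taken on each array for all 12 pairs of kept paralogs. An exact permutation test for any difference among the stages was run over all 15400 splits of the 12 arrays. It covers all stages together, so it has no direction and does not test metestrus against proestrus alone. The paralog comparison was added after the values had been seen. No pair passed at an adjusted p under 0.05. The lowest adjusted p, 0.0938, was shared by Hoxa5 and Hoxb5, Hoxa2 and Hoxb2, and Hoxb6 and Hoxc6, with exact unadjusted p = 0.00948, 0.0217 and 0.0234. Hoxa5 minus Hoxb5 was 1.13 to 1.16 on the metestrus arrays and 0.20 to 0.49 on the proestrus arrays, and Hoxb6 minus Hoxc6 was -3.30 to -2.46 in metestrus and -2.14 to -1.80 in proestrus. With the mean of each array set removed first, 2 of the 12 pairs passed, Hoxb6 and Hoxc6 at an adjusted permutation p of 0.000779 and Hoxa5 and Hoxb5 at 0.0109. The unadjusted p of the first of these, 6.5e-05, is the smallest the splits can give. After that step the splits still ran over all 12 arrays and not within each array set. These p-values are therefore approximate and not exact.

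Metestrus set against estrus, the step after ovulation, gave 2 higher Hox probes and 0 lower, where 1.99% of all probes were called with 0.555% higher and 1.43% lower. Hoxa5 averaged 11.21 in metestrus and 10.40 in estrus, 1.74-fold higher (0.80 ± 0.15, limma adjusted p = 0.0174). Hoxa2 probe 2 averaged 7.50 in metestrus and 6.86 in estrus, 1.56-fold higher (0.64 ± 0.14, limma adjusted p = 0.0333). Hoxc6 lay just outside at 0.0552, with a difference of 0.54 ± 0.13 (limma). With the replicate block 5 probes passed, where 6.60% of all probes did: the same 2 with Hoxa2 probe 1, Hoxc6 and Hoxa7 (limma adjusted p = 0.0037, 0.0132 and 0.0421). Without estrus replicate 2, metestrus replicate 2 or metestrus replicate 3 the count was 0, as it was with median scaling, with normalization apart and from the deposited matrix.

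Proestrus set against diestrus, on entry into the next follicular phase, gave 2 lower Hox probes and 0 higher, where 3.95% of all probes were called with 2.0% lower and 1.94% higher. Hoxa9 probe 1 averaged 6.11 in proestrus and 6.76 in diestrus, a difference of -0.66 ± 0.16 (limma adjusted p = 0.0491). Hoxc6 averaged 11.33 in proestrus and 11.83 in diestrus, a difference of -0.50 ± 0.13 (limma adjusted p = 0.0498). Both lie close to the threshold, and the count was 0 when any 1 of 9 of the 12 arrays was left out, and under the same 3 settings. With the replicate block 5 passed, where 14.3% of all probes did: these 2 with both Hoxa2 probes and Hoxd4, whose difference was -0.50 (limma adjusted p = 0.0461). The within-set differences were -0.64 and -0.67 for Hoxa9 probe 1 and -0.56 and -0.47 for Hoxc6, in replicate 1 and in replicates 2 and 3.

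The remaining pairs gave no Hox call in the limma fit. Estrus against proestrus had 0 called of 23, with 3 probes at an unadjusted p under 0.05, Hoxd3 (0.37 ± 0.13), Hoxd4 (0.53 ± 0.22) and Hoxa9 probe 1 (0.39 ± 0.16), where 0.826% of all probes were called, 0.704% higher and 0.122% lower, and 2.61% with the block, which gave no Hox call either. Diestrus against metestrus had 0 called, with 4 at an unadjusted p under 0.05 and all lower, where 0.0609% of all probes were called, 0.0271% higher and 0.0338% lower, and 0.250% with the block, again with no Hox call. Hoxa5 averaged 10.66 in diestrus and 11.21 in metestrus, a difference of -0.55 with a 95% interval of -0.88 to -0.22 (limma adjusted p = 0.8). Estrus against diestrus had 0 called, with 1 at an unadjusted p under 0.05, where 1.70% were called, 1.28% higher and 0.420% lower, and with the block Hoxa2 probe 1 passed at -0.62 (limma adjusted p = 0.0405, 5.72% of all probes).

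The cofactors that bind DNA together with Hox proteins showed no call. The array held 7 of the 9 listed, and 0 of the 7 passed across the stages or in a pair (limma). Meis1 had stage means of 11.94, 11.95, 12.24 and 12.28 from proestrus to diestrus and Meis2 of 11.59, 11.63, 11.78 and 11.93. On 1 probe for each gene, stage means ran from 8.42 to 8.57 for Pbx2, 6.35 to 6.62 for Pbx3, 8.22 to 8.35 for Pknox1 and 8.46 to 8.70 for Pknox2. A further Pbx3 probe ranged more widely, from 5.33 to 6.67 over the arrays (limma moderated F, adjusted p = 0.101). Meis3, detected on 6 arrays, had means of 5.18 to 5.93. Of the genes flanking the clusters, 0 of 6 tested passed. Of 16 tested members of other homeobox families, 0 passed. Across the stages 4.30% of all probes passed, so counts of 0 in lists this short, the cofactors included, are near that share.

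Of 20 tested chromatin regulators of the clusters 1 passed across the stages, a share near the 4.30% of all probes. Cbx7, a Polycomb subunit that reads the repressive histone mark, had 7.37, 7.54 and 7.83 at proestrus, 7.92, 7.92 and 8.12 at estrus, 8.31, 8.55 and 8.54 at metestrus and 8.10, 8.33 and 8.33 at diestrus. It was lowest at proestrus and highest at metestrus (metestrus minus proestrus 0.89 ± 0.15, limma adjusted p = 0.00574).

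Of 16 tested signals and factors known to act on Hox genes, 3 (Wnt7a, Pgr and Esr2) passed across the stages, and Cyp26a1 passed in a pair alone. Of all probes 4.30% passed across the stages. Wnt7a, an epithelial ligand that keeps posterior Hoxa genes active in the mouse tract, had 7.46, 7.69 and 7.39 at proestrus, 7.70, 7.62 and 7.69 at estrus, 8.56, 8.30 and 8.32 at metestrus and 8.69, 8.59 and 8.37 at diestrus. It was higher in metestrus than in estrus (0.72 ± 0.14, limma adjusted p = 0.017). Pgr, the progesterone receptor gene, averaged 7.77 in metestrus and 8.58 in proestrus lower where the called Hox probes were higher (-0.81 ± 0.15, limma adjusted p = 0.00909). Cyp26a1, which degrades retinoic acid, was lower likewise, with 7.25, 6.50 and 6.69 in metestrus and 8.28, 7.58 and 7.84 in proestrus (-1.08 ± 0.24, limma adjusted p = 0.027), and across the stages its adjusted p was 0.0554 (limma moderated F). Esr2, an estrogen receptor gene, was detected on 4 arrays, had a mean of 6.88 at estrus and passed across the stages (limma moderated F, adjusted p = 0.000705). Esr1, the other estrogen receptor gene, was detected on 12 arrays with stage means of 11.11 to 11.3 and did not pass. Among 8 tested Müllerian duct genes Wnt7a and Amhr2 passed, and Amhr2 was highest at estrus (8.90, against 7.10 to 7.31 at the other stages). Among 9 tested genes described as Hox targets in the tract, 1 passed, which was Wnt7a. In so short a list 1 call is near the share of all probes.

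Cell type markers were followed beside these results. Across the stages 4.30% of all probes were called, so a count of 0 in a short list is near that share. Oviduct secretory markers (5 of 5) and cilia markers (6 of 6 on the array) were detected on all arrays with 0 called. Stromal markers (6 of 6 detected, 0 called) summed to 20400 to 31500 at proestrus, 19300 to 29600 at estrus, 22600 to 44100 at metestrus and 20200 to 30400 at diestrus on the linear scale. The ranges overlapped between all stages. Smooth muscle (7 tested), endothelial (4), mesothelial (3), erythrocyte (2) and immune cell markers (2) also had 0 called. Oocyte markers (7 of 8 tested) and ovarian markers (6 of 6 tested) passed with their peak at estrus. The oocyte markers Zp1 and Zp2 and the ovarian marker Amh were on the array and detected on none of its samples. The oocyte sums were 377 to 594 at proestrus, 1770 to 2300 at estrus, 413 to 661 at metestrus and 705 to 1070 at diestrus. The ovarian sums were 657 to 847, 2420 to 2740, 308 to 422 and 405 to 495 at the same stages. Estrus was also the highest stage of Esr2 and Amhr2, and of 5 of the 23 tested Hox probes (21.7%, against 18.6% of all probes). Of 7 uterine epithelial markers on the array 5 were tested, and Sprr2f and Prss29 passed, both lower in metestrus than in proestrus. Ltf, Ihh and Foxa2 did not pass and ran the other way (0.48, 0.57 and 0.24, metestrus minus proestrus, log2). Prss28 and Lif were detected on no array. Of 5 adipocyte markers on the array 3 were tested, and Adipoq and Cidec passed, both highest at estrus. Lep did not pass, and Fabp4 and Plin1 were detected on no array. The part of these cells in the Hox differences was not tested.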

How the data were processed

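Total RNA of whole oviducts was measured on 12 arrays, 4 stages with 3 arrays each, per the labels. Per the file headers the authors deposited 1 raw intensity and 1 detection p-value per probe and array. The deposited matrix of intensity values is on a linear scale, background-subtracted and, as its values show, quantile normalized apart for replicate 1 and for replicates 2 and 3, with 21.2% to 24.9% of values negative. The sources used here do not name the scanner software. Raw intensities were corrected with normexp from the detection p-values, then quantile normalized over the 12 arrays and turned into log2 values after adding 16 (neqc in limma 3.58.1 under R 4.3.3). Probes with a detection p under 0.01 on at least 3 arrays were kept, 14778 in all. Symbols came from the platform annotation, which gave a single symbol to 23978 probes, several to 0 and none to 1719. All 50 Hox probes matched the RefSeq gene table by Entrez identifier. Since the members are probes, the fit ran on probes, and 1 probe per gene was an alternative. A limma model with 1 mean per stage (8 residual degrees of freedom, no block) gave a moderated F and 6 pairs of stages, adjusted by Benjamini-Hochberg over all kept probes within each, with a threshold of 0.05. The number of arrays limits the precision.

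The replicate numbers were checked for pairing after stage means were removed. Arrays of different stages sharing replicate number 1 correlated at 0.66 to 0.82, those sharing number 2 at 0.27 to 0.52 and those sharing number 3 at 0.40 to 0.56, so blocked values are given beside results. Replicates 2 and 3 correlated with each other at 0.22 to 0.56 and with replicate 1 at -0.70 to -0.28, so the numbers carry mainly the array set. The script was tested on simulated data.

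Values on every array are given for Hox probes that passed a test, for Hoxa9, Hoxa10, Hoxa11, Hoxa13 and their detected paralogs of groups 9 to 13, and for the 4 lowest F p-values. From 7 gene lists, members that passed, all Hox cofactors and Esr1 are named, and 12 marker lists give counts and, for 3 of them, sums. The members and lists were chosen with earlier results of these data known. Coordinates of the gene table are not used, since no build is named for the array. No set test was run.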

Additional observations from a re-analysis of the deposited data

How the results depend on the processing

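The count of Hox probes changed across the cycle, 3, was 0 with median scaling, with normalization apart for the array sets and from the deposited matrix, 5 from that matrix with the replicate block, 6 with the replicate block, 7 with the array set as a block, 7 in replicates 2 and 3 alone and 12 with array weights. Leaving out 1 array gave 1 to 5, with 1 without metestrus replicate 2, metestrus replicate 3 or proestrus replicate 3 and 5 without metestrus replicate 1. The count over all probes moved too, from 31 with normalization apart to 3577 with array weights, against 635. For metestrus against proestrus (5) the count was 0 under the same 3 settings, 1 in a fit of the 6 arrays alone, 7 with the replicate block, 8 with the set block, 9 in replicates 2 and 3, 13 with array weights and 3 to 5 with 1 array left out (3 without metestrus replicate 3). For metestrus against estrus (2) it was 0 under these 3 settings and in the 6 arrays alone, 4 from the deposited matrix with the block, 5 with either block, 7 with array weights and 0 to 2 with 1 array left out (0 without estrus replicate 2 or metestrus replicate 2 or 3). For proestrus against diestrus (2) it was 0 under these 3 settings, with a detection p under 0.05 and in the 6 arrays alone, 1 with no filter, raw intensity, an offset of 50 or an intensity trend, 5 with either block or in replicates 2 and 3, 7 with array weights and 0 to 2 with 1 array left out (0 without any of the proestrus arrays or replicates 2 and 3 of the other stages). Array weights gave 5 for estrus against proestrus and 2 for diestrus against metestrus, and either block gave 1 for estrus against diestrus (0 each otherwise). Of 863 single-probe values under alternatives, 734 kept their side of the threshold, 99 lost it and 30 gained it. These include probes not called in the main fit, many of which stayed uncalled under every setting. The F p-values among them have no direction, and of the fitted differences 0 turned direction. Fitted differences of the 5 probes for metestrus minus proestrus stayed between 0.44 and 1.55. The paralog comparison, 0 of 12 pairs, gave 2 with array set means removed, where the p-values are approximate. It was first run on the 5 pairs that hold a called probe, of which 3 passed (exact permutation, lowest adjusted p = 0.0391), and was replaced since that choice followed the outcome. The causes were not tested. Detection gave 22 to 30 Hox probes under other thresholds and array sets, against 23, and 18 where detection on all 12 arrays was required. Signal near background limits Hoxa4, Hoxb3, Hoxa13 and Hoxc10 most, and at proestrus also Hoxa2 probe 1 and Hoxa9 probe 2.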
